A study of Pseudotsuga menziesii with 83 samples.

Results

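Among 90662 features of a read count table from Douglas-fir (Pseudotsuga menziesii) needles, 150 held 1 level on 10 March and 7 April, a higher one on 6 May, and kept it on 17 June. They were chosen by this shape. CPM, the unit of level used here, is the count of a feature scaled by the total of its library, and levels were averaged per date as log2(CPM + 1) over 11 trees. Of 16435 features with a mean count of 50 or more outside the 50 largest row sums, 892 changed by less than 0.4 on the log2 scale between March and April and between May and June while rising by 0.4 or more between April and May. The 150 with the widest gap between the lower of the May and June means and the higher of the March and April means are described here. The features carry numbers and no gene names, so no function or sequence is given for any of them.

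Needles of the previous season's growth came from individual trees planted together in a common garden in southern Oregon. There were 4 Oregon Siskiyou trees (ORSI; trees 44, 46, 89 and 90), 3 Washington Cascades trees (WACA; trees 5, 8 and 39) and 4 Washington Coast trees (WACS; trees 10, 12, 68 and 69), drawn from 6 families, so that some trees of a source were siblings. Each tree gave 1 library per date, with no treatment, and the 4 dates share their 11 trees. All 11 trees were recorded before budbreak on 10 March, trees 44, 46 and 89 were past it on 7 April, all except tree 10 were past it on 6 May, and all were past it on 17 June. A further Cascades tree, tree 38, took no part in the choice.

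Many conifers keep their needles through winter, in a state of cold hardiness. The study describes Douglas-fir of western Oregon as usually staying active in photosynthesis through that season. In spring, as days lengthen and warm, older needles lose hardiness and supply carbon to the buds, from which the new shoots emerge at budbreak. The needles measured here were the mature cohort, not the new shoots.

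The totals of the 44 libraries lay between 11293394 and 11302021 counts, so the deposited totals hardly differed between libraries or dates, and they do not tell how deeply each library was sequenced. The 50 features with the largest row sums took 18.7% ± 2.77 of the March counts, 20.7% ± 3.6 of the April counts, 28.7% ± 4.17 of the May counts and 34.0% ± 4.58 of the June counts (SD, n = 11), and the share left for all other features fell by as much. The step of a feature is defined here as the mean of May and June minus the mean of March and April. Its median over the 16435 features was -0.21 on the log2 scale by library totals and 0.09 after TMM scaling (which estimates library sizes from the bulk of the features), a shift of 0.30. The step of the 150 features exceeded that of all features by 1.18 by library totals and by 1.17 after TMM scaling. RNA per needle was not measured, so in these bulk samples fewer cells of a type and less RNA per cell cannot be told apart.

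Together the 150 features took 0.618% ± 0.0885 of the March counts, 0.641% ± 0.0729 of the April counts, 1.21% ± 0.157 of the May counts and 1.23% ± 0.116 of the June counts (SD, n = 11 trees). Added up over the 150 features the lowest May library had 9171 CPM and the highest April library had 7472 CPM, so the libraries of these neighbouring dates did not overlap. The median step was 0.97 on the log2 scale, with a range of 0.68 to 2.19. In 71 features the step was 1 or more, and in 1 it was 2 or more. The difference of May from April had a median of 0.92 (0.64 to 2.39), against -0.18 over the 16435 features. These values chose the features, so they are a description and were not tested.

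**Figure D1:**
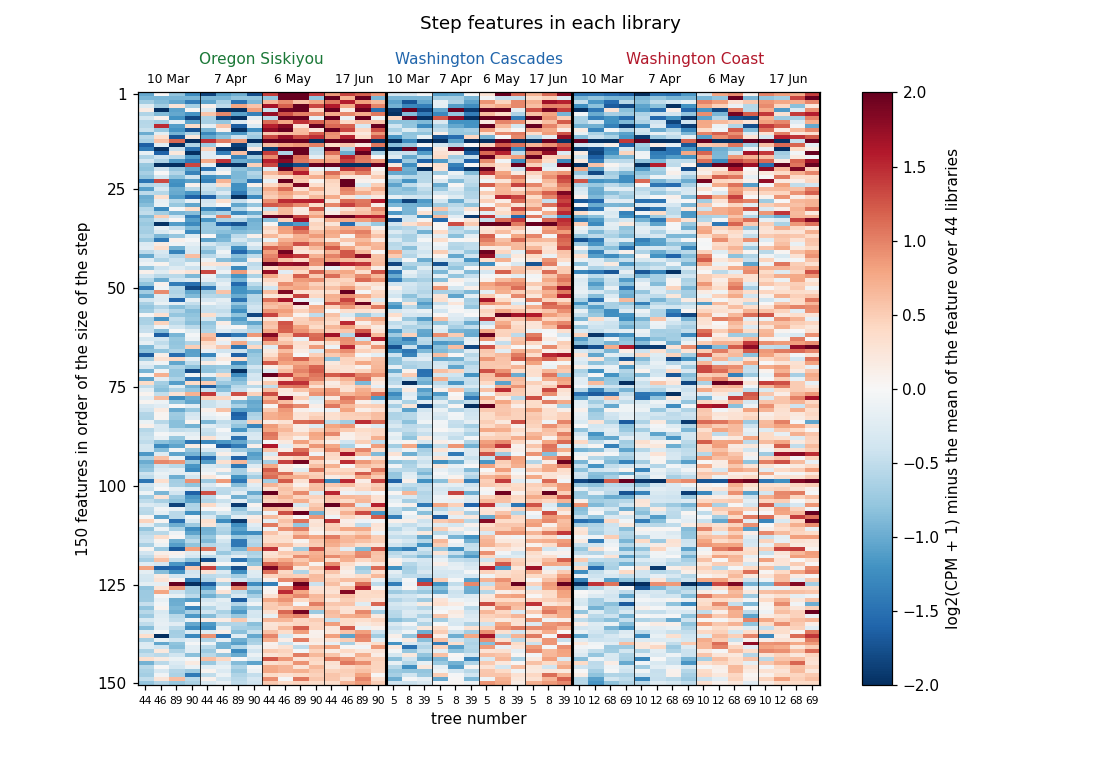
Level of each of the 150 features (rows, in order of the gap that chose them) in each of 44 libraries (columns, by seed source, date and tree), as log2(CPM + 1) minus the mean of the feature over the 44 libraries; colours end at -2 and 2. Blue columns on 10 March and 7 April give way to red ones on 6 May and 17 June in all 3 seed sources, and a few rows stay uneven between trees.

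The flat stretches on either side of the step were flat on average rather than in every feature. Between March and April the 150 features differed by a median of 0.07 (-0.40 to 0.40), and 93 of them were higher in April. Between May and June they differed by a median of 0.03 (-0.37 to 0.39). The highest date was June for 83 features and May for 67. At the edge of the choice, gene13035 and gene16370 were the last to enter, with gaps of 0.6418 and 0.6396, and gene3952 and gene20227 were the first left out, with gaps of 0.6393 and 0.6385. The edge is therefore a place in a continuous ranking.

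The step was shared by most trees. It was above 0 in all 11 trees for 130 features, where 7.04% of the 16435 features had such a step, and in 8 to 10 trees for the other 20. Both later libraries lay above both earlier libraries in every tree for 63 features (0.98% of all features). In 7 features all 22 libraries of May and June lay above all 22 libraries of March and April (0.0548% of all features). Since the choice was made on the same libraries, these shares describe how evenly the trees carried the step.

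The widest gap belonged to gene9387. Its lowest, median and highest levels over 11 trees were 10.4, 16.4 and 34.3 CPM for March, 6.64, 14.9 and 33.5 CPM for April, 27.1, 77.1 and 159 CPM for May, and 56.4, 69.3 and 125 CPM for June. The step was 2.19 ± 0.44 on the log2 scale (SD, n = 11). Both later libraries exceeded both earlier ones in all 11 trees, although the lowest May library, from tree 10, lay under the highest of March, from tree 46. The May levels were uneven, with 158 and 159 CPM in trees 46 and 89 of 1 Oregon family against 91.5 and 93.3 CPM in trees 44 and 90 of the other.

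In gene11743 no later library overlapped an earlier one. It had 1.42, 2.92 and 4.69 CPM (lowest, median, highest) in March, 1.86, 3.98 and 6.11 CPM in April, 8.85, 12.6 and 14.8 CPM in May, and 11.3, 13.5 and 24.3 CPM in June. Its step was 1.75 ± 0.36 (SD, n = 11).

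The step of gene14174 was 1.43 ± 0.35 and present in all 11 trees. It had 6.81, 9.3 and 14.9 CPM in March, 3.98, 10.6 and 17.5 CPM in April, 19.3, 29.7 and 47.8 CPM in May, and 13.8, 26.1 and 40.5 CPM in June. Its later libraries overlapped the earlier ones only through the lower part of the June range.

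For gene23261 the levels were 2.92, 6.02 and 15.4 CPM in March, 1.42, 6.64 and 22.2 CPM in April, 8.14, 21.9 and 61.8 CPM in May, and 6.55, 25.0 and 42.8 CPM in June. The libraries overlapped widely between trees. Within every tree both later libraries still lay above both earlier ones, and the step was 1.60 ± 0.37 (SD, n = 11).

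Trees differed more in the other features with wide gaps. The step of gene36952 was 1.56 ± 0.68, with 21.3 CPM as the May median and 5.67 CPM as the April median, and 9 of 11 trees had both later libraries above both earlier ones. That of gene31448 was 1.51 ± 0.66, with medians of 22.9 CPM in May and 10.0 CPM in April. That of gene21127 was 1.52 ± 0.73, with medians of 4.78 CPM in May and 0.797 CPM in April, and it had the lowest mean count of the 150, 50.2 per library.

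**Figure D2:**
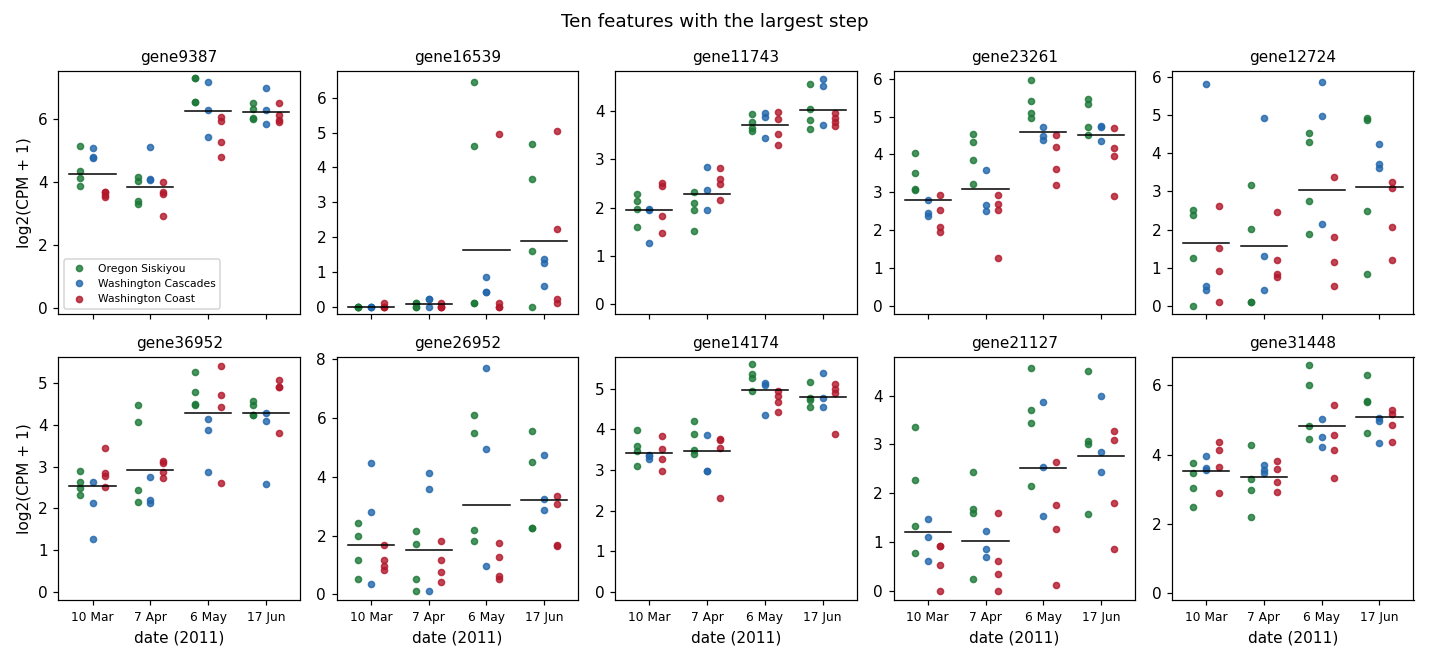
Level in log2(CPM + 1) of the 10 features with the widest gap, by date; each point is 1 tree, coloured by seed source, and the black bar is the mean of 11 trees. In gene9387, gene11743 and gene14174 the May and June points sit above most or all points of March and April, whereas in gene16539, gene12724 and gene26952 a few high trees carry the May and June means.

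In gene16539, gene12724 and gene18667 the step was smaller than its spread over trees. No feature had a larger spread of the step than gene18667, 1.45 ± 1.90 (SD, n = 11), followed by gene16539, 1.73 ± 1.78, and gene12724, 1.46 ± 1.78. In gene16539 the count was 0 in 3 of 22 libraries of May and June and in 16 of 22 of March and April, and no March or April library exceeded 0.177 CPM. Its May levels reached 86.3 CPM in tree 89, 29.9 CPM in tree 68 and 23.5 CPM in tree 46, and no other tree passed 0.797 CPM. The median May library held 0.354 CPM.

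Trees 8 and 90 went against the step in both gene18667 and gene12724. Tree 8 had 37.6 and 30.6 CPM of gene18667 in May and June, against 121 and 61.6 CPM in March and April, a step of -1.32, and tree 90 had a step of -0.61. Tree 5 had a step of 4.86 in gene18667, with 137 CPM in May against 3.63 CPM in April. In gene26952 the step was 1.52 ± 1.50 and above 0 in 9 trees, and its May levels lay between 0.442 and 204 CPM. In gene12724 tree 8 had a step of -0.76 and tree 90 one of -0.99, while tree 89 had 4.00. Over the 44 libraries the deviations of gene12724 and gene18667 from their date means had a correlation of 0.88 and those of gene26952 and gene18667 one of 0.83. The libraries are shared by both features and come from 11 trees, so these are descriptions. Among the 150 features the median correlation of such deviations was 0.10, close to 0.11 among every 10th of the 16435 features, so trees that were high in 1 feature were in general not high in the others beyond what all features showed.

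The evenest steps were small ones. In gene14016 the step was 0.68 ± 0.13 (SD, n = 11), in gene19002 it was 0.75 ± 0.13, and in gene24158 it was 0.80 ± 0.14. The May and June libraries of gene19002 lay between 47.7 and 84.4 CPM and those of March and April between 29.1 and 46.8 CPM, with no overlap. Those of gene14016 overlapped, with 47.4 to 107 CPM in May and June and 26.3 to 73.8 CPM in March and April. Over all 150 features the spread of the step had a median SD of 0.38, against 0.32 over the 16435 features.

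The 150 features spanned mean levels of 4.45 to 1040 CPM, with a median of 19.9 CPM. The step had a median of 1.02 in the 47 features under 10 CPM, 0.93 in the 81 between 10 and 100 CPM, and 0.91 in the 22 at 100 CPM or more. A pseudocount of 1 CPM understates the step of the lowest features. Counts of 0 occurred in 4 features in May or June and in 8 in March or April.

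The most abundant was gene14306. It had 492, 691 and 938 CPM (lowest, median, highest of 11 trees) in March, 568, 745 and 1110 CPM in April, 995, 1360 and 1540 CPM in May, and 883, 1340 and 1740 CPM in June. Its step of 0.80 ± 0.18 was present in all 11 trees, and in each of them both later libraries lay above both earlier ones. The next was gene8525, with a step of 1.09 ± 0.34 and medians of 480, 493, 938 and 1080 CPM from March to June. Then came gene9037 with a step of 0.78 ± 0.44, gene597 with 0.81 ± 0.40 and gene28534 with 0.78 ± 0.42. In gene9037 tree 5 had a step of -0.19, and the other 10 trees had steps of 0.50 to 1.36. Of the features with the lowest mean counts, gene23180 had medians of 2.66, 2.83, 5.84 and 6.37 CPM from March to June and gene26668 had 2.3, 1.95, 3.72 and 6.02 CPM.

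Averaged over the 150 features, every tree had its May and June libraries above its March and April libraries. The lowest and highest tree means were 3.70 and 4.11 for March, 3.57 and 4.18 for April, 4.50 and 5.26 for May, and 4.73 and 5.09 for June, on the log2(CPM + 1) scale. No April tree reached the lowest May tree. The mean step was largest in tree 89, 1.42, and smallest in tree 10, 0.80, and the other 9 trees had 0.92 to 1.10.

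Tree 89 stood apart in all features. By library totals 57.6% of the 16435 features had a step above 0 in this tree, against 24.8% to 38.2% in the other 10. Its April library was the lowest of 11 for 56 of the 150 features and for 35.5% of all features. Set against the median of all features in the same tree, the median step of the 150 features was 1.25 in tree 89 and 1.05 to 1.35 in the other 10, so that by this measure tree 89 lay within their range.

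**Figure D3:**
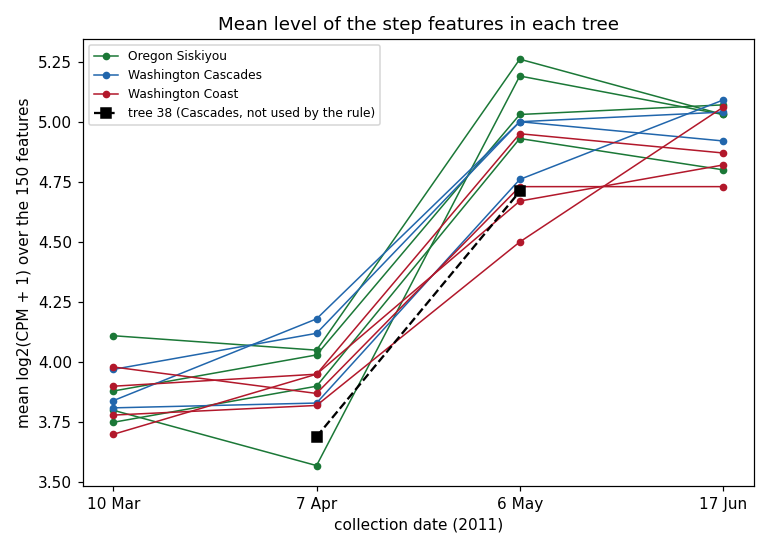
Mean log2(CPM + 1) over the 150 features in each tree (lines) on the 4 collection dates, coloured by seed source, with tree 38, which the choice did not use, as a dashed line for 7 April and 6 May. All lines climb between 7 April and 6 May, that of tree 89 most steeply (5.19 in May and 3.57, the lowest of 11, in April), and tree 69 is lowest on 6 May at 4.50 and reaches 5.06 on 17 June.

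The recorded state of the buds was set beside these means. In April the 3 Oregon trees past budbreak had means of 4.03 (tree 44), 4.05 (tree 46) and 3.57 (tree 89), against 3.90 in tree 90 of the same source before budbreak and 3.82 to 4.18 in the Washington trees before budbreak. Trees 8 and 5, before budbreak, had 4.12 and 4.18, above all 3 trees past it, and tree 89, past budbreak, lay below all others. In trees 44, 46 and 89, 80, 61 and 115 of the 150 features lay below the April median of the other 10 trees, where 64.4%, 64.4% and 71.3% of all features did. In trees 8 and 5 the counts were 56 and 42, with 44.3% and 35.9% of all features. These means by library totals thus also carry differences between trees that all features shared. In May tree 10 was the 1 tree still before budbreak. Its mean was 4.73, against 4.50 to 5.26 in the 10 trees past it, and its May exceeded its April by 0.86, against 0.68 to 1.62 in the others. In that library 91 of the 150 features lay below the median of the other 10 trees, where 28.3% of all features did. With 1 tree in this state, state and tree cannot be told apart.

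Tree 69 had the lowest May mean. Its May library was the lowest of 11 for 53 of the 150 features (31.1% of all features). In that library 110 of the 150 features lay below the median of the other 10 trees, as did 73.4% of all features. The low May level was therefore not particular to the 150 features. The June mean of tree 69 exceeded its May mean by 0.57. Tree 39 gained 0.33 over the same interval, and the other 9 trees changed by -0.23 to 0.15.

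Tree 38 gave the only measure of the rise from April to May that the choice had not used. Only its April and May libraries were compared, so the tree does not show whether the level was flat before and after. It is of the same family as tree 8, which took part in the choice, so by descent it is not independent of the 11 trees. Its May library exceeded its April library in 148 of the 150 features, where 44.8% of the 16435 features did so. The difference was 0.4 or more in 139 features (20.2% of all features) and 1 or more in 77 (3.29% of all features). Its median was 1.04 on the log2 scale, with quartiles of 0.66 and 1.32, against -0.07 over all features. In the 11 trees the median difference of May from April was 0.92. With 1 tree there is no test.

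The values of tree 38 lay within the range of the 11 trees for 139 features, above all of them for 8 and below all of them for 3. In gene9387 it had 52.0 CPM in May and 18.7 CPM in April. In gene11743, the feature without overlap, it had 7.44 CPM in May and 4.34 CPM in April, a difference of 0.66 and the smallest of the 12 trees. Its largest difference was in gene18667, with 21.1 CPM in May and 0.266 CPM in April. The 2 features that were not higher in May were gene17297, with 8.32 CPM in May and 8.77 CPM in April, and gene26668, with 0.177 CPM on both dates. The next smallest difference was in gene27708, with 3.45 CPM in May and 3.28 CPM in April. Over the 150 features the differences in tree 38 and the mean differences in the 11 trees had a correlation of 0.43, a description over features that share libraries. The April library of tree 38 was sequenced on flowcell fc1022 and its May library on fc1025, so flowcell and date cannot be told apart in this tree.

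**Figure D4:**
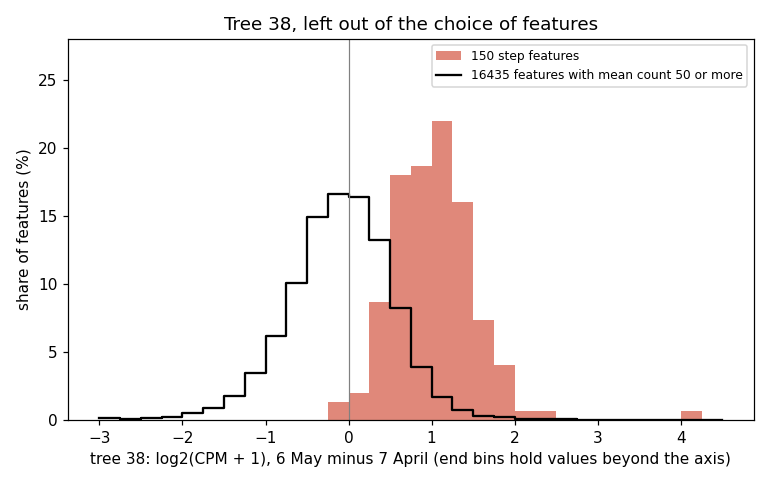
Difference of 6 May from 7 April in tree 38 on the log2(CPM + 1) scale (horizontal, bins of 0.25), as a share of the 150 features (filled bars) and of the 16435 features with a mean count of 50 or more outside the 50 largest row sums (black line). The bars centre near 1.04 and the line near -0.07.

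Trees of the 3 seed sources were compared to ask whether the step depended on origin. The choice used the mean over all 11 trees and no difference between sources. A feature could still enter it through a large step in the trees of a source alone. By library totals the mean step over the 150 features was 1.16 ± 0.18 in the 4 Oregon trees, 1.01 ± 0.08 in the 3 Cascades trees and 0.92 ± 0.09 in the 4 Coast trees (SD). In 115 of the 150 features the Oregon mean step lay above the Coast mean step, as it did in 76.1% of all features. After TMM scaling the count was 87 of 150, with 52.6% of all features. Relative to the median of all features the 150 differed between Oregon and Coast trees by 0.06 by library totals and by 0.05 after TMM scaling.

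No feature passed the test of a difference between sources in the step (edgeR quasi-likelihood test with TMM scaling, Benjamini-Hochberg adjustment, adjusted p of at most 0.01), with 0 calls among 29189 features (0.0%) and 0 among the 149 members tested. An unadjusted p under 0.05 was found for 7 of the 149 members and for 3.79% of all features. DESeq2 with the same design also made 0 calls. These fits had no term for the tree and treated the libraries of a tree on different dates as independent. Their p-values therefore rest on the spread between libraries of the same source and date, not on the spread of the step between trees. Some of the trees were siblings. With the tree as a block, edgeR made 0 calls, and an unadjusted p under 0.05 was found for 17 of the 149 members (11.4%) and for 10.7% of all features, whereas DESeq2 called 29 features (0.0994%), of which gene27625 and gene14150 were members, with adjusted p of 0.0012 and 0.0018. The same 2 had the smallest adjusted p of all members in the blocked edgeR fit, 0.075 and 0.078. Both were singled out after their values had been seen. Each owed its place in the choice mostly to the trees with the larger step. Its difference between sources is therefore not independent of the choice.

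In gene14150 the 4 Oregon trees (44, 90, 46, 89) had 102, 35.8, 211 and 52.3 CPM in May and 15.8, 14.2, 41.0 and 16.6 CPM in April. The Cascades trees (5, 39, 8) had 56.7, 6.11 and 15.0 CPM in May and 31.6, 4.69 and 17.1 CPM in April. The Coast trees (10, 69, 12, 68) had 12.5, 13.2, 12.7 and 30.3 CPM in May and 7.52, 8.59, 12.0 and 15.3 CPM in April. The step was 1.79 to 2.75 in the Oregon trees and -0.12 to 1.23 in the 7 Washington trees, with no overlap. Fitted without the block, the Oregon step exceeded the Cascades step by 1.46 (SE 0.65) and the Coast step by 1.25 (SE 0.61). With the tree as a block the differences were 1.74 (SE 0.35, edgeR adjusted p of this contrast = 0.063) and 1.33 (SE 0.32, edgeR adjusted p = 0.11).

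The order of the sources was the other way round in gene27625. Oregon trees had 128, 96.4, 58.3 and 55.8 CPM in May and 138, 70.6, 40.3 and 126 CPM in April. Cascades trees had 49.2, 72.6 and 74.4 CPM in May and 22.7, 25.1 and 51.7 CPM in April, and Coast trees had 43.8, 122, 58.7 and 40.7 CPM in May and 17.9, 41.9, 20.2 and 10.8 CPM in April. The step was -0.33 to 0.84 in the Oregon trees and 0.86 to 2.00 in the 7 Washington trees. Fitted without the block, the Oregon step was below the Coast step, with a difference of -1.71 (SE 0.44, edgeR adjusted p of this contrast = 0.71). With the tree as a block, which pairs the dates within a tree, the difference was -1.72 (SE 0.31, edgeR adjusted p = 0.070).

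Another member, gene31448, was among the 10 with the widest gap and stepped by 2.29 ± 0.23 in the Oregon trees (n = 4), 1.04 ± 0.35 in the Cascades trees (n = 3) and 1.07 ± 0.21 in the Coast trees (n = 4, SD). Its fitted difference between Oregon and Coast trees was 1.07 (SE 0.45, edgeR adjusted p = 0.73) without the block. With the tree as a block it was 1.03 (SE 0.31, edgeR adjusted p = 0.15). The step of gene28534 ran the other way, 0.43 ± 0.20 in the Oregon trees, 0.82 ± 0.51 in the Cascades trees and 1.10 ± 0.26 in the Coast trees. A missed threshold does not show that the sources step alike. Without the block, the fitted difference of Oregon from Coast trees over the 149 members had a median of 0.01. It was above 0 in 80 of them (53.7%, against 50% of all features). It ranged between -1.71 in gene27625 (SE 0.44) and 2.36 in gene26952 (SE 1.21).

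**Figure D5:**
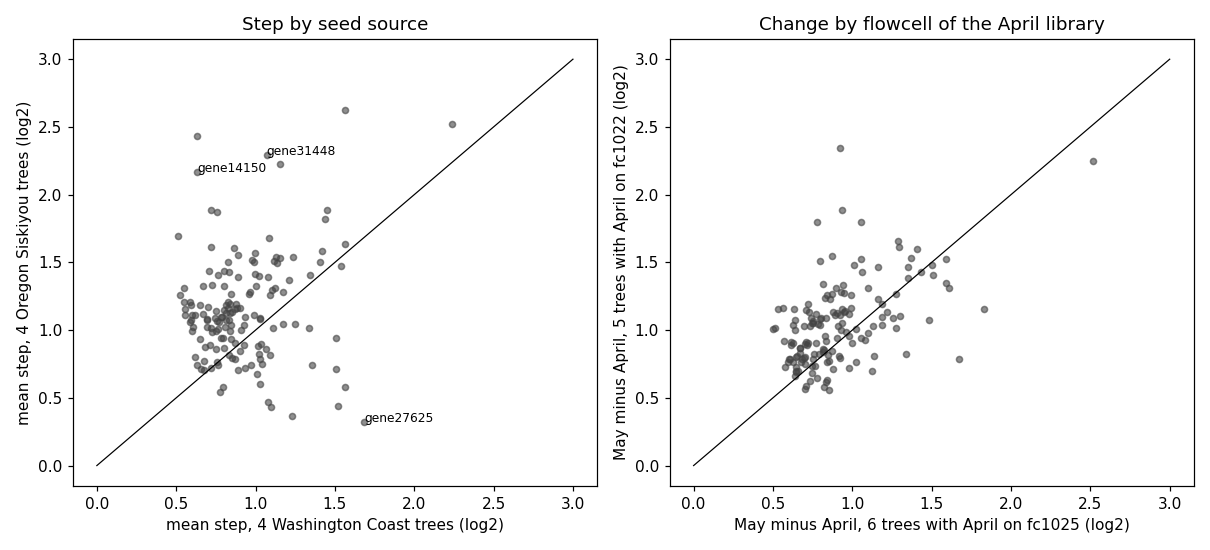
Left, mean step of each of the 150 features in 4 Oregon Siskiyou trees (vertical) against 4 Washington Coast trees (horizontal), by library totals; right, mean difference of May from April in the 5 trees whose April library was on fc1022 (vertical) against the 6 trees whose April library was on fc1025 (horizontal), both on the log2 scale with the line of equal values. On the left, 115 of 150 points lie above the line, gene14150 and gene31448 far above it and gene27625 far below; on the right, all points lie above 0.4 on both axes.

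Since 3 of 4 Oregon trees and no Washington tree were past budbreak on 7 April, the change from March to April was compared between them. The 150 features changed from March to April by 0.14, -0.07, -0.23 and 0.15 in Oregon trees 44, 46, 89 and 90, and by -0.12 to 0.35 in the 7 Washington trees, so the groups overlapped. The choice had kept only features whose mean change from March to April over all trees was under 0.4. Features with a strong early rise in the Oregon trees were thus mostly left out beforehand. The values of the members therefore cannot decide whether the step came earlier in trees past budbreak. No feature passed the test, with 0 calls among 29189 (0.0%) and 0 among the 149 members (edgeR, adjusted p of at most 0.01). An unadjusted p under 0.05 was found for 3 members and for 2.72% of all features. DESeq2 with the same design also made 0 calls. With the tree as a block edgeR made 0 calls, with an unadjusted p under 0.05 for 10 members (6.71%) and for 7.67% of all features, and DESeq2 called 2 features (0.00685%), neither of them a member.

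The level over all 4 dates was compared between sources on counts added up per tree. Of 41096 features, 4 passed the edgeR test (0.00973%), and 0 of the 150 members did. An unadjusted p under 0.05 was found for 24 members, 16.0%, against 9.32% of all features. In the fit 117 of the 150 members (78%) were higher in Oregon than in Coast trees, where 49.1% of all features were, with a median difference of 0.19. Without tree 46 the median was 0.12 and the count 95 of 150. By library totals 93 of 150 were higher in Oregon than in Coast trees, with 40.8% of all features. Date by date, the count above 0 for Oregon minus Coast was 74 for 10 March (35.4% of all features), 66 for 7 April (29.0%), 121 for 6 May (53.9%) and 95 for 17 June (63.4%). Every Oregon tree lay above every Coast tree for 4 members in March (1.05% of all features), 5 in April (1.7%), 12 in May (1.97%) and 3 in June (4.34%). In April every Oregon tree lay below every Coast tree for 8 members (8.65% of all features).

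DESeq2 called 268 features in the same comparison (0.652%), of which 5 were members. The 5 were gene4800, gene16370, gene18667, gene23261 and gene55757. In gene4800 May levels were 26.2, 33.1, 32.8 and 43.0 CPM in the Oregon trees, 31.9, 27.4 and 28.9 CPM in the Cascades trees, and 16.7, 14.5, 22.7 and 24.1 CPM in the Coast trees, so that every Coast tree lay below all others. Its fitted level was higher in Oregon than in Coast trees by 0.69 (SE 0.12, edgeR adjusted p of this contrast = 0.19). In gene55757 the Oregon trees had 3.01, 4.34, 0.531 and 0.796 CPM in May and the Cascades trees had 35.2, 6.99 and 21.2 CPM, a fitted difference in level of -2.99 (SE 0.66, edgeR adjusted p = 0.29). In gene23261 the level was higher in Oregon than in Coast trees by 1.38 (SE 0.30, edgeR adjusted p = 0.32). Both gene4800 and gene55757 were singled out after their values had been seen.

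All May and June libraries were run on flowcell fc1025, while in March and April each tree had 1 library on fc1022 and 1 on fc1025. Each sequencing lane held libraries of only 1 date. Lane and date therefore cannot be told apart, also in the 6 trees with both April and May on fc1025. In the 5 trees whose April library was on fc1022, the difference of May from April had a median of 1.03 (0.56 to 2.34), and in the 6 trees with both libraries on fc1025 it had a median of 0.84 (0.50 to 2.52). All 150 features passed 0.4 in both sets of trees, where 12.1% and 10.6% of all features did. All 11 trees took part in the choice, so these values are a description, and the part of the flowcell in the step was not tested by them.

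Averaged over the 150 features, fc1022 libraries had 3.81 ± 0.15 (SD, n = 5) and fc1025 libraries 4.03 ± 0.11 (n = 6) in April, while in March fc1022 libraries had 3.91 ± 0.14 (n = 6) and fc1025 libraries 3.81 ± 0.06 (n = 5). Trees 44, 46, 5, 8, 10 and 12 were the higher set on both dates, on fc1022 in March and on fc1025 in April. The test of fc1022 against fc1025 within March and April made 0 calls among 30752 features (0.0%) and 0 among the 149 members tested (edgeR, adjusted p of at most 0.01). An unadjusted p under 0.05 was found for 0 members and for 0.758% of all features. With the tree as a block, which sets the 2 libraries of a tree against each other, edgeR also made 0 calls, and an unadjusted p under 0.05 was found for 15 of the 149 members (10.1%) and for 4.06% of all features. Of these 15, gene9387 and gene89971 were higher on fc1022, by 0.36 and 0.93, and the others were lower, with differences of -1.62 to -0.21. Over all 149 members the median of fc1022 minus fc1025 was -0.03 without the block, with 63 above 0 (42.3%, against 51.4% of all features). With the block the median was -0.04, again with 63 above 0. A lower level on fc1022 would add to the step, since all May and June libraries were on fc1025. Whether it did, and by how much, was not tested. DESeq2 called 1 feature (0.00325%), which was not a member.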

How the data were processed

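The authors deposited 1 table of whole-number read counts per feature for 47 libraries of needle RNA (strand-specific libraries). CASAVA 1.8 and Bowtie2 are named in the submitters' processing notes, and the study's methods describe alignment to a transcriptome assembled de novo from needles of these and other trees. Whether the 90662 deposited features are numbered from that assembly, and which tool counted the reads, is not stated there. The nearly equal totals of the deposited counts show that the libraries had been brought to about 1 depth beforehand, by a step not described in the sources used here, so totals do not tell how deeply each was sequenced. The 3 libraries of tree 38 were kept out of the choice and the tests. Samples of other dates were not analysed here.

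Counts were fitted in R 4.3.3 with edgeR 4.0.16 (TMM, quasi-likelihood F test) after a filter on a median count over 5, and p-values were adjusted over all features tested with a threshold of 0.01. Means per source and date (44 libraries) gave the differences in step and from March to April. Counts added up per tree gave the level, and 22 libraries of March and April gave the flowcell test with source and date as covariates. Trees were used as replicates, whereas the study's methods averaged siblings. The same trees pair the dates: deviations of libraries of 1 tree had a mean correlation of 0.589 (0.318 to 0.819, over 0.1 in 66 of 66 pairs). Alternatives were DESeq2 1.42.0, other scalings, filters, thresholds and pseudocounts, the tree as a block, a flowcell term, sums per family, and leaving out each tree. The blocked DESeq2 fit was added after the data had been seen. Tests were checked on simulated counts.

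The members and lists were chosen with earlier results of these data known. Named features, apart from those said to be singled out, were the 10 with the widest gap, the 5 most abundant, the 3 with the lowest mean count, the 3 with the largest and the 3 with the smallest SD of the step, up to 5 past each test, 2 on each side of the edge, and the 3 with the smallest difference in tree 38.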

Additional observations from a re-analysis of the deposited data

Results flagged for a closer look

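Of 74 groups of 4 to 6 trees examined, 5 held 1 tree far from the others, and chance alone flags about 1 in 20 groups. Over the 150 features the mean step of tree 89 was 1.42, against 1.04 to 1.10 in the other Oregon trees, and the mean June level of tree 90 was 4.80, against 5.03 to 5.07. Tree 46 had a step of 0.19 in gene13035, against 0.88 to 0.98 in the other Oregon trees. Tree 10 had a step of 0.42 in gene8525, against 1.10 to 1.21 in the other Coast trees, and of 0.42 in gene20227, against 0.76 to 0.80.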

How the results depend on the processing

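The 150 features were chosen for a rise in these same libraries, so the sign of their step was nearly fixed beforehand. The step stayed above 0 for all of them under every scaling, pseudocount and subset of trees tried. Its median of 0.97 was 1.26 with TMM scaling, 1.20 without the 50 largest features in the library size and 0.79 with a pseudocount of 5. Without 1 tree at a time it ranged from 0.94 to 1.00. The rule, rerun without 1 tree at a time, chose 117 to 136 of the 150 again, 83 with the trees whose April library was on fc1022, 69 with Oregon trees alone, 73 with Cascades trees alone and 80 with Coast trees alone. The step of 31 named features was computed under 22 alternatives, and 657 of 682 values moved by less than the SD over trees, 25 moved by more and 0 changed sign. All of these except gene3952 and gene20227 had been chosen for their rise in the same libraries. For the step between sources, the replicate block (tree) in edgeR left 0 calls, and in DESeq2, chosen after seeing the data, it gave 29 calls with 2 members. For the change from March to April that block gave 0 calls in edgeR and 2 in DESeq2. For the level, the 4 calls became 268 (5 members) with DESeq2, 10 with no filter, 8 with edgeR's own filter, 2 with counts added up per family, and 1 to 2 without 1 tree at a time. For the flowcell test, 0 calls became 1 with DESeq2, 22 with no filter and 0 to 1 without 1 tree at a time, and the block left 0. No member was called in any edgeR alternative. The cause of these differences was not tested. With 3 or 4 trees a source, the precision of differences between sources is limited, and some trees of a source are siblings.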

Other observations

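A further library of tree 38 is labelled 17 June, while the study's own sample list gives this tree another date, and it was used in no comparison. Its mean over the 150 features was 4.96 on the log2(CPM + 1) scale, above 4.71 in May and 3.69 in April of the same tree, and 144 of the 150 features were above their April level in it. The 3 other Cascades trees had 4.92 to 5.09 in June and 3.81 to 3.97 in March.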
